A study of Homo sapiens with 6 samples.

Results

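Solute carriers (SLC) are the largest group of membrane transporters in human cells and move nutrients, ions, metabolites and drugs across the plasma membrane and the membranes of organelles. They are sorted by sequence into numbered subfamilies, so that SLC25 holds the carriers of the inner mitochondrial membrane and SLC38 holds sodium-coupled carriers of small neutral amino acids. Tumor cells rely on these carriers for glucose, glutamine, phosphate and metals, and for the export of lactate. In total, 158 protein-coding genes with an SLC family symbol had a mean level of at least 1 FPKM (fragments per kilobase of gene length, scaled to the size of the library) over the 6 libraries. They were chosen from 339 protein-coding genes with such a symbol in a table of 58174 genes, by the symbol and by this level alone. Of the 158 genes, 153 carry the symbol of a transporter, and 5 are named after a transporter that their protein binds, regulates or neighbors (SLC9A3R1, SLC9A3R2, SLC4A1AP, SLC2A4RG and SLC7A6OS). The 158 genes belong to 40 subfamilies, of which 18 had 3 or more expressed members, 10 had 2 members and 12 had 1.

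All libraries were made from KNS42, an established cell line derived from a glioblastoma (GBM), the most malignant glioma. The cells were grown in DMEM with serum and transfected with siRNAs against MSI1 (siMSI1, n = 3) or with a control siRNA (siC, n = 3), and polyadenylated RNA was sequenced from cells harvested 72 h later. MSI1 encodes Musashi-1, an RNA-binding protein of neural stem cells that controls the fate of mRNAs through short words with UAG in their 3′UTRs. The question of the comparison was which mRNAs change in abundance upon MSI1 knockdown. The groups represent 1 cell line treated at 1 time, and since the labels do not say that the libraries of a group came from separate cultures, p-values measure the spread between these libraries, which may be technical.

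MSI1 itself was measured at 63.7, 61.9 and 66.9 FPKM in the siC libraries and 12.1, 12.3 and 11.2 FPKM in the siMSI1 libraries, and its paralog MSI2 at 17.0, 17.8 and 15.9 FPKM in the siC libraries and 14.5, 15.3 and 13.2 FPKM in the siMSI1 libraries. Thus, MSI1 fell to 18.5% of the siC level (log2 fold change -2.43 ± 0.067 (SE), adjusted p = 8.71e-06, limma). The libraries held 13087025 to 18024080 reads on genes. Among markers of the cell types, 7 of 9 neural stem and glioma genes were at or above 1 FPKM, and the summed level of the list was 1572 to 1637 FPKM in siC and 1260.5 to 1359 FPKM in siMSI1. CD44 and FABP7 were lower, as was MSI1, the target of the siRNAs. The sums were mostly VIM (means of 1035 and 865 FPKM) and SOX2 (301 and 257 FPKM). Both were lower without overlap but short of the threshold, as were NES and PROM1. PDGFRA and EGFR were higher without overlap, also short of the threshold. The 6 astrocyte markers, of which S100B and ALDH1L1 were at 0, summed to 43.1 to 46.6 FPKM in siC and 64.1 to 72.2 FPKM in siMSI1, with GFAP (log2 fold change 1.46, adjusted p = 0.000905) and AQP4 (log2 fold change 0.80, adjusted p = 0.00127) higher. Markers of mature neurons summed to 14.97 to 16.2 FPKM in siC and 10.4 to 12.05 FPKM in siMSI1 with SYP lower and RBFOX3 at 0, and those of fibroblasts and mural cells to 64.1 to 72.8 FPKM and 39.8 to 51.7 FPKM. The latter sums were mostly ACTA2, which fell (means of 63.5 FPKM in siC and 41.8 FPKM in siMSI1). COL1A1 and COL1A2 did not pass the threshold, and PDGFRB, too low to be tested, was higher without overlap. Oligodendrocyte, leukocyte and endothelial lists stayed at or below 0.577 FPKM in sum in every library. The part of these shifts in the levels of the SLC genes was not tested, and in bulk RNA, fewer cells of a type and less RNA per cell cannot be told apart.

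Upon MSI1 knockdown, 23 of the 158 SLC genes changed (14.6%) at an adjusted p of at most 0.01 (limma on log2(FPKM + 0.1), Benjamini-Hochberg over all 15069 tested genes). Of all tested genes 11.0% changed, and of the 10572 protein-coding genes with a mean of at least 1 FPKM 13.9% changed, so the share of the SLC genes was near the latter. These 10572 genes are called genes of like level below. They share only the floor of 1 FPKM, were not matched on level and include the 158 SLC genes. Among the SLC genes, 13 fell (8.23%, against 5.83% of all tested genes and 7.56% of the genes of like level) and 10 rose (6.33%, against 5.15% and 6.36%). The siC and siMSI1 libraries did not overlap for 82 SLC genes (51.9%), of which 46 were lower and 36 higher in siMSI1. Such separation was found for 42.8% of all tested genes (21.5% lower, 21.4% higher) and for 49.1% of the genes of like level (25.1% lower, 24.0% higher). A change of at least 2-fold was found for 9 of the 23 genes, 4 lower and 5 higher. This is 5.70% of the SLC genes, against 1.95% of all tested genes and 1.96% of the genes of like level, and SLC6A11 and SLC43A2 reached a mean of 1 FPKM only through their level in siMSI1. The median log2 fold change of the 158 genes was -0.05 with quartiles of -0.27 and 0.20, and all tested genes had a median of 1.46e-05 with quartiles of -0.24 and 0.23. The summed level of the 158 genes ranged from 2482 to 2600.1 FPKM in siC and from 2463 to 2668 FPKM in siMSI1, so that the groups overlapped.

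**Figure D1:**
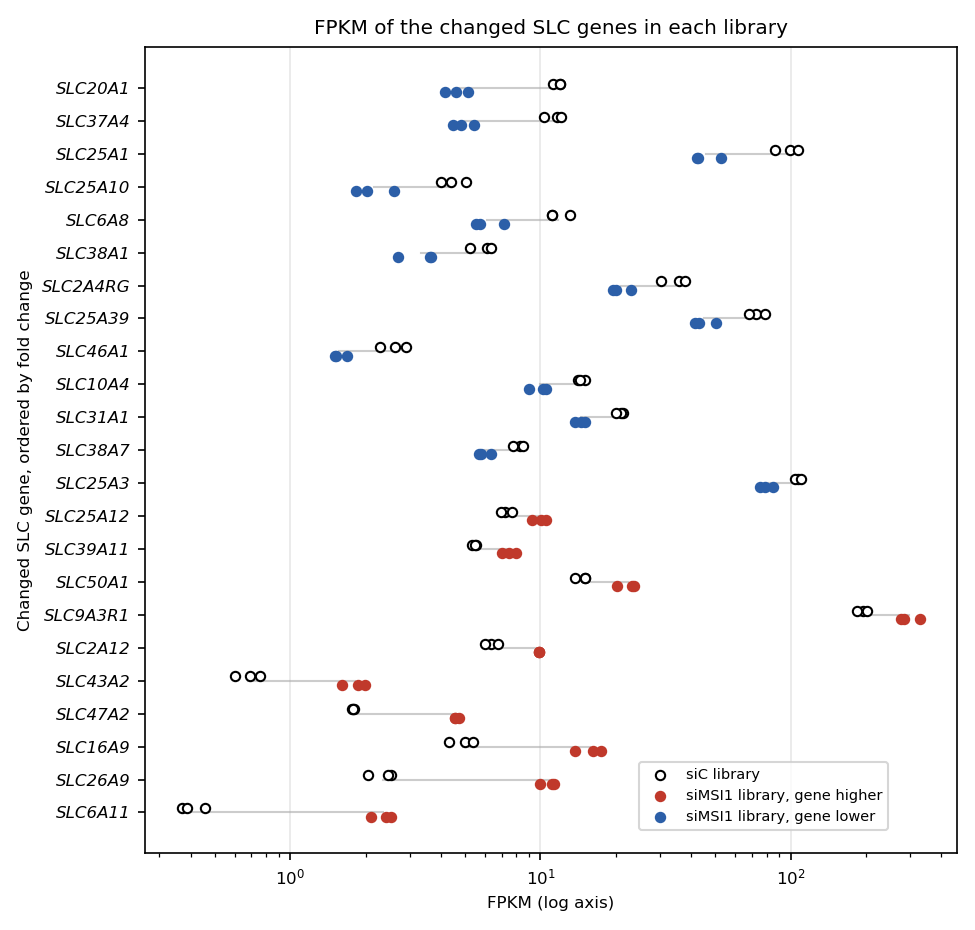
FPKM (log axis) of the 23 changed SLC genes in each library, with open circles for the 3 siC libraries and filled circles for the 3 siMSI1 libraries (blue for lower genes, red for higher genes). Genes are ordered by fold change from SLC20A1 (log2 fold change -1.33) to SLC6A11 (2.28), and the groups of each gene are separate.

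Since MSI1 is known to bind UAG words in 3′UTRs, the longest annotated 3′UTR of each gene was searched for them in its own strand. GUAGU, which contains UAG, was held by 55.6% of the 3′UTRs of 11281 tested protein-coding genes and by 53.5% of those of 157 SLC genes. It was found in 8 of the 13 SLC genes that fell (61.5%), in 6 of the 10 that rose (60.0%) and in 52.2% of those that did not change, and in 58.6% of all tested protein-coding genes that fell and 49.0% of those that rose. Such shares depend on length, and the sets differ in it. The median 3′UTR had 1060 bases in the SLC genes that fell, 1938.5 in those that rose and 1754.5 in those that did not change. It had 1539 bases in all tested protein-coding genes, 1705.5 in those that fell and 1301.5 in those that rose. The shorter GUAG was held by 83.1% of all tested protein-coding genes, by 12 of the 13 SLC genes that fell (92.3%), by 7 of the 10 that rose (70.0%) and by 89.6% of those that did not change. Of all tested protein-coding genes, 88.7% of those that fell and 79.7% of those that rose held GUAG. Its median was 2.99 per kb in the SLC genes that fell, 1.11 per kb in those that rose and 2.38 per kb in all tested protein-coding genes, and these differences were not tested. UAG itself was found at a median of 10.9 per kb in the SLC genes that fell, 8.71 per kb in those that rose and 10.6 per kb in the others. All tested protein-coding genes had a median of 11.3 per kb, with 11.1 per kb in those that fell and 10.2 per kb in those that rose. The first GUAGU of SLC20A1, the SLC gene with the largest fall that holds it, and of the pair of SLC genes with the largest rises that hold it, are given as DNA on the strand of the gene (GENCODE on GRCh38), with the word in capitals, to show the word in its surroundings in genes that moved in opposite directions. A match is a description and not a site of binding.
SLC20A1 (chr2:112663471-112663499, plus strand): acaacttcccttGTAGTctcttatataag
SLC26A9 (chr1:205913215-205913243, minus strand): gatggaggcaaaGTAGTgaaataatccag
SLC16A9 (chr10:59652590-59652618, minus strand): cctattttttatGTAGTgtatgcgtagcc

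The largest fall was that of SLC20A1, the plasma membrane importer of inorganic phosphate also known as PiT1. It was measured at 11.3, 11.99 and 12.002 FPKM in the siC libraries and 4.61, 5.13 and 4.15 FPKM in the siMSI1 libraries, and no library of one group reached the level of the other. SLC20A1 fell to 39.4% of the siC level (log2 fold change -1.33 ± 0.093 (SE), adjusted p = 0.000247). The second phosphate importer of the subfamily, SLC20A2 (PiT2), was at 7.65, 7.68 and 6.97 FPKM in siC and 9.12, 8.83 and 9.11 FPKM in siMSI1, which was higher without overlap but did not pass the threshold (log2 fold change 0.28 ± 0.073 (SE), adjusted p = 0.0286). Together, the phosphate importers summed to 18.9, 19.7 and 19.0 FPKM in siC and 13.7, 14.0 and 13.3 FPKM in siMSI1. XPR1, the phosphate exporter of the plasma membrane, which carries no SLC symbol in the table, fell from 102 to 67.7 FPKM (log2 fold change -0.59 ± 0.083 (SE), adjusted p = 0.00249). SLC25A3, which takes phosphate into mitochondria for ATP synthesis, was at 106, 104 and 109.7 FPKM in the siC libraries and 75.3, 78.6 and 84.6 FPKM in the siMSI1 libraries, without overlap. It fell to 74.5% of the siC level (log2 fold change -0.42 ± 0.067 (SE), adjusted p = 0.00397), with the call lost without any 1 of the siC replicates or siMSI1 replicate 1 or 2 (adjusted p up to 0.0258).

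Among carriers of sugars and sugar phosphates, SLC37A4 fell and SLC2A12 and SLC50A1 rose. SLC37A4 brings glucose 6-phosphate into the endoplasmic reticulum, where glucose is released from it. It was at 11.6, 10.3 and 12.05 FPKM in siC and 4.80, 4.46 and 5.40 FPKM in siMSI1, less than the lowest siC library in each siMSI1 library, and fell to 43.2% (log2 fold change -1.20 ± 0.099 (SE), adjusted p = 0.000378). SLC2A12 (GLUT12), a facilitative hexose transporter, was at 6.32, 6.74 and 6.01 FPKM in siC and 9.82, 9.90 and 9.83 FPKM in siMSI1, and it rose 1.55-fold (log2 fold change 0.63 ± 0.073 (SE), adjusted p = 0.00121). SLC50A1 (SWEET1), a sugar uniporter of inner membranes and the cell surface, was at 15.1, 13.7 and 15.1 FPKM in siC and 20.2, 23.7 and 23.2 FPKM in siMSI1, again without overlap. It rose 1.53-fold (log2 fold change 0.61 ± 0.083 (SE), adjusted p = 0.00219), and the call was lost without siC replicate 1 (adjusted p up to 0.0116). The main glucose transporters of glioma cells gave no call. SLC2A1 (GLUT1) was at 23.4, 20.7 and 24.6 FPKM in siC and 19.7, 17.5 and 22.6 FPKM in siMSI1 (log2 fold change -0.20 ± 0.11 (SE), adjusted p = 0.214), and SLC2A3 (GLUT3) was at 9.04, 8.61 and 8.37 FPKM in siC and 8.64, 7.34 and 8.25 FPKM in siMSI1 (log2 fold change -0.10 ± 0.084 (SE), adjusted p = 0.409). In both, the groups overlapped. SLC2A1 stood above SLC2A12 in every library, by 19.9 against 9.85 FPKM on average in siMSI1. The 13 genes of the class summed to 128 ± 5.31 FPKM in siC and 131 ± 7.42 FPKM in siMSI1, with overlap. These sums include SLC5A3 and SLC5A6, placed in the class by subfamily though they are not hexose carriers (together 36.0 FPKM in siC and 40.2 FPKM in siMSI1).

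The mitochondrial carriers of SLC25 were the largest subfamily with 39 expressed genes, of which 4 fell, 1 rose and 34 did not pass the threshold. SLC25A1, the citrate carrier that exports citrate for the synthesis of fatty acids and sterols, was at 99.5, 86.1 and 107 FPKM in the siC libraries and 42.8, 42.0 and 52.8 FPKM in the siMSI1 libraries. The groups were far apart, and SLC25A1 fell to 47.0% of the siC level (log2 fold change -1.09 ± 0.11 (SE), adjusted p = 0.0008). SLC25A10, the dicarboxylate carrier that exchanges malate and succinate for phosphate, was at 4.38, 3.99 and 5.04 FPKM in siC and 2.02, 1.83 and 2.60 FPKM in siMSI1. It fell to 48.2% (log2 fold change -1.03 ± 0.15 (SE), adjusted p = 0.00304), and this call was lost without siC replicate 1 or 3 or siMSI1 replicate 1 or 2 (adjusted p up to 0.0157). SLC25A39, which brings glutathione into mitochondria, was at 72.8, 68.0 and 79.2 FPKM in siC and 43.2, 41.3 and 50.2 FPKM in siMSI1, without overlap. It fell to 61.2% (log2 fold change -0.71 ± 0.093 (SE), adjusted p = 0.00188), and the call was lost without siC replicate 1 (adjusted p up to 0.0116). SLC25A12, a carrier of aspartate and glutamate in the malate-aspartate shuttle, was the member that rose and was at 7.22, 7.69 and 6.95 FPKM in siC and 10.1, 10.6 and 9.23 FPKM in siMSI1 (log2 fold change 0.44 ± 0.081 (SE), adjusted p = 0.00724). Its call was lost without any 1 of the siC replicates or siMSI1 replicate 1 or 2 (adjusted p up to 0.0363). Its close paralog SLC25A13 was at 34.2, 34.6 and 35.1 FPKM in siC and 34.3, 35.2 and 35.0 FPKM in siMSI1, nearly the same level in all libraries (log2 fold change 0.01 ± 0.056 (SE), adjusted p = 0.924). SLC25A13 was the more abundant of the pair in every library.

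The most abundant carriers of the subfamily were SLC25A5 and SLC25A6, adenine nucleotide translocases, which exchange ATP for ADP, and neither passed the threshold. SLC25A5 was at 278, 279 and 285 FPKM in siC and 247, 259.9 and 270.3 FPKM in siMSI1 (log2 fold change -0.12 ± 0.063 (SE), adjusted p = 0.214), which was lower without overlap. SLC25A6 was at 134, 122 and 144 FPKM in siC and 134, 146 and 174 FPKM in siMSI1, with overlap and its highest value in siMSI1 replicate 3 (log2 fold change 0.18 ± 0.11 (SE), adjusted p = 0.283). SLC25A11, the oxoglutarate carrier, was at 45.6, 40.5 and 47.0 FPKM in siC and 38.3, 38.6 and 47.6 FPKM in siMSI1 (log2 fold change -0.10 ± 0.10 (SE), adjusted p = 0.516). Over the 39 genes, the median log2 fold change was -0.10, 23 were below 0 and 16 above 0, and 15 were lower and 7 higher without overlap, as were 25.1% and 24.0% of the genes of like level. The summed level of the subfamily was 1046, 1012 and 1090.2 FPKM in siC and 887, 912 and 994 FPKM in siMSI1, so every siMSI1 library was below every siC library, and the siMSI1 mean was 88.7% of the siC mean. Of these sums, SLC25A1 made up 97.6 and 45.9 FPKM. MPC1, a subunit of the mitochondrial pyruvate carrier, also fell (log2 fold change -0.53, adjusted p = 0.00503), whereas its partner MPC2 was at 46.2, 48.2 and 45.6 FPKM in siC and 45.4, 49.1 and 44.2 FPKM in siMSI1. Among sideroflexins, mitochondrial carriers of serine and other amino acids, SFXN2 fell (log2 fold change -1.25, adjusted p = 0.00117) and SFXN1 (log2 fold change 0.41, adjusted p = 0.00486), SFXN3 (log2 fold change 1.08, adjusted p = 0.000366) and SFXN5 (log2 fold change 0.71, adjusted p = 0.000718) rose.

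Among the 17 carriers of amino acids, SLC38A1 and SLC38A7 fell and SLC43A2 rose. SLC38A1 takes up glutamine with sodium and was at 6.13, 6.34 and 5.22 FPKM in siC and 3.61, 3.66 and 2.70 FPKM in siMSI1, without overlap, with siC replicate 3 and siMSI1 replicate 3 the lowest of their groups. It fell to 56.4% of the siC level (log2 fold change -0.82 ± 0.14 (SE), adjusted p = 0.0055), and the call was lost without any 1 of the siC replicates or siMSI1 replicate 1 or 2 (adjusted p up to 0.0274). SLC38A7, an exporter of glutamine from the lysosome, was at 8.32, 7.75 and 8.54 FPKM in siC and 5.69, 5.76 and 6.34 FPKM in siMSI1, again without overlap. It fell to 72.3% (log2 fold change -0.46 ± 0.081 (SE), adjusted p = 0.00616), and the call was lost without any 1 of the siC replicates or siMSI1 replicate 1 or 2 (adjusted p up to 0.0345). SLC38A2, the most abundant of the subfamily and known to be induced by amino acid shortage, was at 43.1, 45.2 and 35.4 FPKM in siC and 33.3, 32.9 and 27.9 FPKM in siMSI1. It was lower without overlap but did not pass the threshold (log2 fold change -0.39 ± 0.11 (SE), adjusted p = 0.0387). Of the 6 expressed SLC38 genes, 2 passed the threshold and 5 were lower without overlap, as were 25.1% of the genes of like level, and SLC38A6 was the exception at 2.04, 2.14 and 1.99 FPKM in siC and 2.54, 2.40 and 1.83 FPKM in siMSI1. The subfamily summed to 80.7, 81.5 and 72.5 FPKM in siC and 60.0, 60.8 and 55.6 FPKM in siMSI1, and its median log2 fold change was -0.39. SLC43A2 (LAT4), a facilitator of large neutral amino acids, was low at 0.755, 0.599 and 0.688 FPKM in siC and 1.86, 1.60 and 1.98 FPKM in siMSI1, and all siMSI1 libraries were above siC. It rose 2.67-fold (log2 fold change 1.29 ± 0.17 (SE), adjusted p = 0.00199), and the call was lost without siMSI1 replicate 1 (adjusted p up to 0.0117).

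The amino acid carriers best known from tumors did not pass the threshold. SLC1A5 (ASCT2), which exchanges glutamine, was at 31.0, 25.1 and 31.4 FPKM in siC and 27.0, 28.3 and 31.6 FPKM in siMSI1, with overlap and a fold change near 0 (log2 fold change -0.0043 ± 0.11 (SE), adjusted p = 0.981). SLC7A5 (LAT1) was at 39.1, 32.6 and 33.9 FPKM in siC and 34.8, 29.7 and 37.8 FPKM in siMSI1 (log2 fold change -0.05 ± 0.11 (SE), adjusted p = 0.78), and its heavy chain SLC3A2 (4F2hc) was at 36.3, 34.4 and 37.1 FPKM in siC and 40.0, 44.5 and 44.7 FPKM in siMSI1 (log2 fold change 0.26 ± 0.071 (SE), adjusted p = 0.0317). Light and heavy chain differed in that SLC3A2 was higher without overlap while the groups overlapped for SLC7A5. SLC7A11 (xCT), which exchanges cystine for glutamate with the same heavy chain, was at 9.34, 9.56 and 6.86 FPKM in siC and 10.5, 10.3 and 8.53 FPKM in siMSI1 (log2 fold change 0.20 ± 0.14 (SE), adjusted p = 0.361). SLC7A1, a carrier of cationic amino acids, gave a log2 fold change of -0.12 with an adjusted p of 0.36. None of the 4 expressed SLC7 transporters passed the threshold in limma or in limma's voom on the reads recovered from FPKM. In limma, 1 of them had an unadjusted p under 0.05, as had 75 of all 158 SLC genes. SLC1A3, the glial glutamate transporter EAAT1 and one of the astrocyte markers above, was at 19.0, 18.4 and 18.5 FPKM in siC and 21.9, 22.5 and 21.2 FPKM in siMSI1 (log2 fold change 0.23 ± 0.060 (SE), adjusted p = 0.028). SLC1A4 (ASCT1), which carries serine and alanine, was at 5.00, 5.02 and 5.03 FPKM in siC and 3.05, 2.94 and 4.32 FPKM in siMSI1 (log2 fold change -0.56 ± 0.15 (SE), adjusted p = 0.029). SLC1A3 was higher and SLC1A4 lower, both without overlap. For a single gene outside the fit, the exact two-sided permutation test of 3 against 3 libraries gives no p under 0.1.

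The SLC6 subfamily, which holds sodium- and chloride-dependent carriers of neurotransmitters and related molecules, had both the largest rise and one of the larger falls. SLC6A11 (GAT-3), a GABA transporter typical of astrocytes, was at 0.369, 0.388 and 0.456 FPKM in siC and 2.41, 2.09 and 2.54 FPKM in siMSI1. Its level in siC was low, with 37 to 47 reads per library against 184 to 244 reads in siMSI1, and the groups were far apart. SLC6A11 rose 5.81-fold (log2 fold change 2.28 ± 0.18 (SE), adjusted p = 0.000354), the highest log2 fold change among the SLC genes. SLC6A8, the creatine transporter, was at 11.1, 11.1 and 13.1 FPKM in siC and 5.52, 5.74 and 7.16 FPKM in siMSI1, without overlap, and fell to 52.1% (log2 fold change -0.93 ± 0.12 (SE), adjusted p = 0.00156). SLC6A6, which takes up taurine, was the most abundant of the subfamily at 26.8, 27.0 and 26.1 FPKM in siC and 34.4, 31.4 and 35.9 FPKM in siMSI1 and missed the threshold narrowly (log2 fold change 0.35 ± 0.069 (SE), adjusted p = 0.0102). The sum of the 4 genes was 40.5 ± 0.617 FPKM in siC and 43.6 ± 3.34 FPKM in siMSI1 with overlap. Of the 6 astrocyte markers, GFAP and AQP4 rose, SLC1A3 did not pass the threshold, SLC1A2 was too low to be tested at a mean of 0.143 FPKM in siC and 0.0841 FPKM in siMSI1, and S100B and ALDH1L1 were at 0. Their part in the SLC6A11 value was not tested.

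Carriers of organic acids and anions gave 2 of the largest rises. SLC16A9 (MCT9), a monocarboxylate transporter subfamily member that exports carnitine, was at 4.99, 5.39 and 4.30 FPKM in siC and 16.1, 17.4 and 13.7 FPKM in siMSI1. The lowest siMSI1 library was above the highest siC library by a wide margin, and SLC16A9 rose 3.22-fold (log2 fold change 1.67 ± 0.12 (SE), adjusted p = 0.000247). SLC16A1 (MCT1), the lactate and pyruvate transporter, was far more abundant at 107, 112 and 98.8 FPKM in siC and 126, 125 and 106 FPKM in siMSI1 and its groups overlapped (log2 fold change 0.16 ± 0.090 (SE), adjusted p = 0.223). The expressed SLC16 genes summed to 125, 129.8 and 116 FPKM in siC and 153, 154 and 131 FPKM in siMSI1, every siMSI1 library being above siC. BSG, the chaperone of MCT1, was at 342, 305 and 356 FPKM in siC and 336, 343 and 418 FPKM in siMSI1 with overlap (log2 fold change 0.13 ± 0.10 (SE), adjusted p = 0.415), and NPTN, a related chaperone, fell (log2 fold change -0.60, adjusted p = 0.00134). The hypoxia-linked lactate exporter SLC16A3 (MCT4) was not among the expressed genes, at a mean of 0.0539 FPKM with 5 to 11 reads per library. SLC26A9, which conducts or exchanges chloride in epithelia, was at 2.04, 2.52 and 2.47 FPKM in siC and 11.2, 11.3 and 9.98 FPKM in siMSI1. It rose 4.61-fold (log2 fold change 2.16 ± 0.11 (SE), adjusted p = 0.000129), the lowest adjusted p among the SLC genes. The other 4 expressed SLC26 genes did not change, and the sum of the subfamily went from 9.44 ± 0.670 to 17.8 ± 1.12 FPKM. Summed epithelial markers were 22.3 to 26.0 FPKM in siC and 19.1 to 23.1 FPKM in siMSI1. KRT8 and KRT18 did not pass the threshold, and EPCAM and CDH1 were too low to be tested. SLC10A4, an orphan member of the bile salt carrier subfamily found on synaptic vesicles, was at 14.1, 15.1 and 14.4 FPKM in siC and 8.98, 10.5 and 10.2 FPKM in siMSI1, without overlap. It fell to 68.2% (log2 fold change -0.55 ± 0.080 (SE), adjusted p = 0.00287), and the call was lost without any 1 of the siC replicates (adjusted p up to 0.0154).

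Bicarbonate, proton and cation-chloride carriers, which set cell pH and volume, gave no call apart from SLC26A9. SLC4A2 (AE2), the most abundant anion exchanger, was at 80.8, 74.0 and 84.4 FPKM in siC and 77.8, 74.7 and 95.5 FPKM in siMSI1, with overlap (log2 fold change 0.05 ± 0.10 (SE), adjusted p = 0.786). SLC4A7, a sodium-bicarbonate cotransporter, gave a log2 fold change of 0.31 with an adjusted p of 0.254. SLC12A2 (NKCC1), through which glioma cells accumulate chloride, was at 7.15, 7.93 and 6.68 FPKM in siC and 6.97, 6.89 and 5.60 FPKM in siMSI1 (log2 fold change -0.16 ± 0.11 (SE), adjusted p = 0.329), and SLC12A4 (KCC1) gave a log2 fold change of 0.13 with an adjusted p of 0.527. Thus, none of the 5 SLC4, 5 SLC12 and 6 SLC9 transporters passed the threshold in limma. Voom on recovered reads called 1, 1 and 0 of them, and 1, 1 and 2 had an unadjusted p under 0.05 in limma. Of all 158 SLC genes, 75 had such an unadjusted p. The sum of the 5 cation-chloride cotransporters was 30.1 ± 0.632 FPKM in siC and 30.3 ± 0.629 FPKM in siMSI1. Of the sodium-potassium ATPase subunits, whose gradient drives many of these carriers, 1 of 6 tested genes changed, and this was ATP1B3 (log2 fold change -0.38, adjusted p = 0.0036).

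Of the 23 metal carriers, SLC31A1 fell and SLC39A11 rose. SLC31A1 (CTR1), the main importer of copper, was at 21.3, 21.0 and 19.9 FPKM in siC and 13.8, 15.1 and 14.5 FPKM in siMSI1. The groups did not overlap, and it fell to 69.8% (log2 fold change -0.52 ± 0.066 (SE), adjusted p = 0.00168), with the call lost without siC replicate 1 (adjusted p up to 0.0144). SLC31A2, its paralog on endosomes and lysosomes, was at 3.07, 2.52 and 2.22 FPKM in siC and 3.93, 3.93 and 3.98 FPKM in siMSI1, higher without overlap but short of the threshold (log2 fold change 0.59 ± 0.13 (SE), adjusted p = 0.0135). SLC39A11 (ZIP11), a zinc transporter, was at 5.32, 5.51 and 5.48 FPKM in siC and 7.49, 7.99 and 7.05 FPKM in siMSI1 and rose 1.38-fold (log2 fold change 0.46 ± 0.079 (SE), adjusted p = 0.00574). Its call was lost without any 1 of the siC replicates or siMSI1 replicate 1 or 2 (adjusted p up to 0.033). The other 10 expressed SLC39 genes did not pass the threshold, among them SLC39A1 (ZIP1), the most abundant metal carrier, at 79.8, 79.3 and 84.1 FPKM in siC and 87.7, 85.3 and 102 FPKM in siMSI1 (log2 fold change 0.17 ± 0.082 (SE), adjusted p = 0.163), and SLC39A14 (ZIP14), which imports zinc, manganese and iron (log2 fold change -0.27, adjusted p = 0.0245). None of the 6 zinc exporters of SLC30 passed it either, with SLC30A1 (ZnT1) at a log2 fold change of -0.34 with an adjusted p of 0.0425. SLC40A1 (ferroportin), the iron exporter, was not among the expressed genes at a mean of 0.136 FPKM. The 23 metal carriers summed to 277 ± 1.21 FPKM in siC and 272 ± 6.26 FPKM in siMSI1, with overlap.

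Among carriers of vitamins, nucleosides and drugs, SLC46A1 fell and SLC47A2 rose. SLC46A1, the proton-coupled folate transporter, was at 2.90, 2.28 and 2.63 FPKM in siC and 1.51, 1.52 and 1.69 FPKM in siMSI1, without overlap, and fell to 60.4% (log2 fold change -0.69 ± 0.13 (SE), adjusted p = 0.00881). This was the call nearest the threshold, and it was lost when any 1 of the 6 libraries was left out (adjusted p up to 0.0462). SLC19A1, the reduced folate carrier, gave a log2 fold change of -0.05 with an adjusted p of 0.79. SLC47A2 (MATE2), an exporter of organic cations known from the kidney, was at 1.80, 1.76 and 1.79 FPKM in siC and 4.57, 4.56 and 4.70 FPKM in siMSI1. The spread within the groups was small, and SLC47A2 rose 2.59-fold (log2 fold change 1.33 ± 0.091 (SE), adjusted p = 0.000247). Its paralog SLC47A1 (MATE1) was at 7.48, 7.20 and 7.75 FPKM in siC and 5.53, 5.32 and 6.12 FPKM in siMSI1, lower without overlap but short of the threshold (log2 fold change -0.40 ± 0.084 (SE), adjusted p = 0.0123). The pair drew closer in level, from 7.48 against 1.78 FPKM in siC to 5.66 against 4.61 FPKM in siMSI1. SLC29A1 (ENT1), the nucleoside transporter, was at 1.70, 1.64 and 1.69 FPKM in siC and 0.997, 0.801 and 1.32 FPKM in siMSI1 (log2 fold change -0.67 ± 0.19 (SE), adjusted p = 0.0386). It was lower without overlap, with siMSI1 replicate 3 the highest of its group.

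Of the 5 genes that are named after a transporter, SLC9A3R1 rose and SLC2A4RG fell. SLC9A3R1 (NHERF1), a PDZ scaffold that ties carriers such as NHE3 to ezrin, was the most abundant of the changed genes at 194, 183 and 202 FPKM in the siC libraries and 276, 283 and 328 FPKM in the siMSI1 libraries. It rose 1.53-fold (log2 fold change 0.61 ± 0.084 (SE), adjusted p = 0.00224), and the call was lost without siC replicate 1 or 2 (adjusted p up to 0.0148). Its paralog SLC9A3R2 (NHERF2) was at 10.0, 8.94 and 11.0 FPKM in siC and 14.1, 12.8 and 15.4 FPKM in siMSI1, higher without overlap but short of the threshold (log2 fold change 0.49 ± 0.10 (SE), adjusted p = 0.012). SLC2A4RG, a DNA-binding regulator of the GLUT4 gene, was at 35.6, 30.2 and 37.9 FPKM in siC and 19.6, 20.1 and 23.0 FPKM in siMSI1. It fell to 60.4% (log2 fold change -0.72 ± 0.10 (SE), adjusted p = 0.00267), and the call was lost without siC replicate 1 or 3 or siMSI1 replicate 1 or 2 (adjusted p up to 0.0157). Without these 5 genes, 21 of 153 transporters changed (13.7%), 12 lower and 9 higher.

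By subfamily, 15 of 40 held a changed gene, and 3 held at least 2 (SLC25, SLC38 and SLC6). Changes in both directions were found in SLC25 and SLC6. No changed gene was found in 10 of the 18 subfamilies with 3 or more members, namely SLC1, SLC4, SLC7, SLC9, SLC12, SLC29, SLC30, SLC35, SLC41 and SLC44. Of the 42 genes of these subfamilies, 15 had an unadjusted p under 0.05 in limma, and voom on recovered reads called 5. For comparison, 75 of all 158 SLC genes had an unadjusted p under 0.05 in limma. The shares of all tested genes for these 2 measures are not given here. Among the 18 subfamilies with 3 or more members, the lowest medians were those of SLC37 (-0.43, 3 genes), SLC41 (-0.42, 3 genes, magnesium transporters) and SLC38 (-0.39, 6 genes), and the highest was that of SLC16 (0.16, 5 genes). In SLC26 and SLC6, 1 gene stood far outside the range of the others. In SLC37 and SLC38, 3 of 3 and 5 of 6 genes lay below 0, and SLC37A3 was at -0.01.

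**Figure D2:**
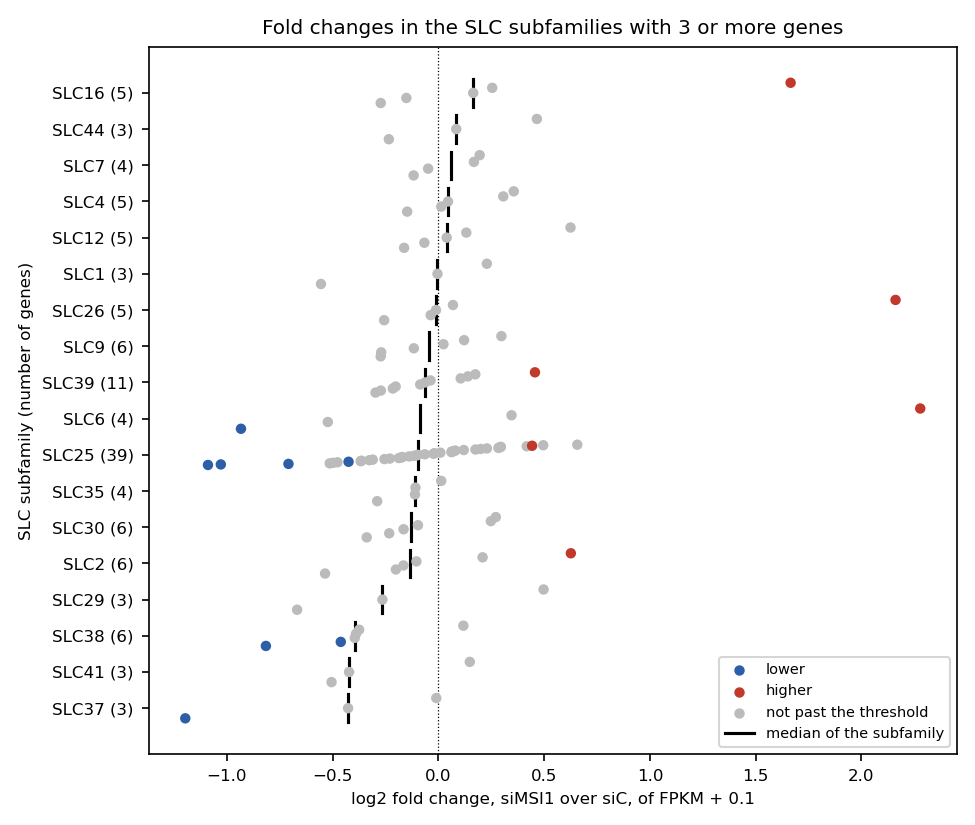
The log2 fold change of FPKM + 0.1, siMSI1 over siC, for the transporters of the 18 subfamilies with 3 or more expressed genes, with 1 point per gene, blue for lower, red for higher and grey for genes not past the threshold, and a bar at the subfamily median. The points of SLC26A9 (2.16) and SLC6A11 (2.28) lie far to the right of their subfamilies, and 4 of the 39 SLC25 points are blue.

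Summed by substrate, the levels of 5 classes of 3 or more genes did not overlap between the groups, and those of all other such classes did. Of single genes of like level, 49.1% did not overlap, and a like share for sums is not given here. The mitochondrial carriers (88.7% of siC) and the carriers of nucleotide sugars and acetyl-CoA (91.5%) were lower. The carriers of organic ions, peptides and urea (118%), the carriers of lipids and choline (107%) and the genes named after a transporter (136%) were higher. The last of these is no substrate class. SLC9A3R1 alone made up 193 of its 257 FPKM in siC and 296 of its 349 FPKM in siMSI1, while SLC2A4RG fell. Of the mitochondrial sum, SLC25A5 held the largest share and did not pass the threshold, whereas SLC25A1, SLC25A39 and SLC25A3 fell. Amino acid carriers stood at 96.1%, metal carriers at 98.03% and the class of hexoses and sugars at 103% of siC, all with overlap. Classes were assigned by subfamily, so the last of these includes SLC5A3 and SLC5A6, which are not hexose carriers. SLC5A3 and SLC5A6 together stood at 112% of siC, higher without overlap (36.0 FPKM in siC and 40.2 FPKM in siMSI1). Sums are a description of the libraries and were not tested.

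**Figure D3:**
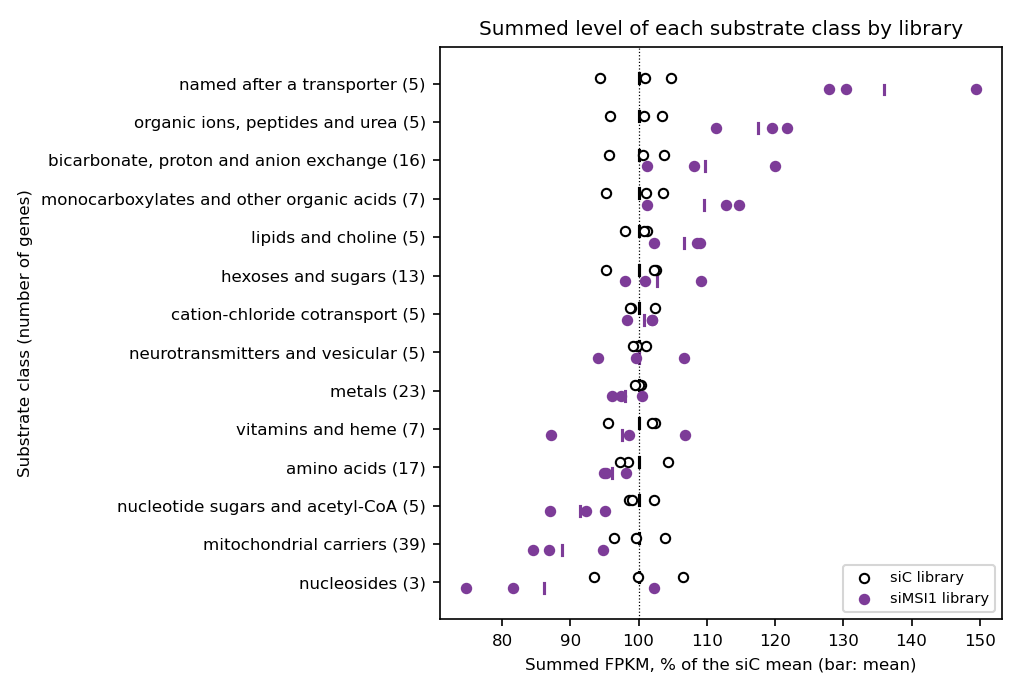
Summed FPKM of each substrate class of 3 or more genes in each library, as a percentage of the siC mean of the class, with open circles for siC, filled circles for siMSI1 and a bar at the mean of the 3 libraries of each group. The 3 siMSI1 points of the mitochondrial carriers lie below all siC points, while the siMSI1 points of the metal and amino acid carriers overlap those of siC near 100%.

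Of the 23 calls, 9 were kept in each of the 6 fits that left out 1 library and in each of the 16 alternatives at the same threshold. These were the falls of SLC20A1, SLC37A4, SLC25A1 and SLC6A8 and the rises of SLC2A12, SLC47A2, SLC16A9, SLC26A9 and SLC6A11. All 23 genes kept their direction throughout. On GRCh38, the 9 genes lie at chr2:112645939-112663825 (SLC20A1, plus strand), chr11:119023751-119030906 (SLC37A4, minus strand), chr22:19175581-19178739 (SLC25A1, minus strand), chrX:153687926-153696588 (SLC6A8, plus strand), chr6:133987581-134052624 (SLC2A12, minus strand), chr17:19678288-19718979 (SLC47A2, minus strand), chr10:59650764-59736002 (SLC16A9, minus strand), chr1:205913048-205943460 (SLC26A9, minus strand) and chr3:10816201-10940714 (SLC6A11, plus strand). Without siC replicate 1, 10 SLC genes changed, whereas 27 changed without siMSI1 replicate 3. The shares of all tested genes in these fits are not given here. SLC12A8 (2.14, 1.89 and 1.82 FPKM in siC and 3.27, 2.70 and 3.22 FPKM in siMSI1) was the gene closest to the threshold among those that did not pass it (adjusted p = 0.0102).

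**Figure D4:**
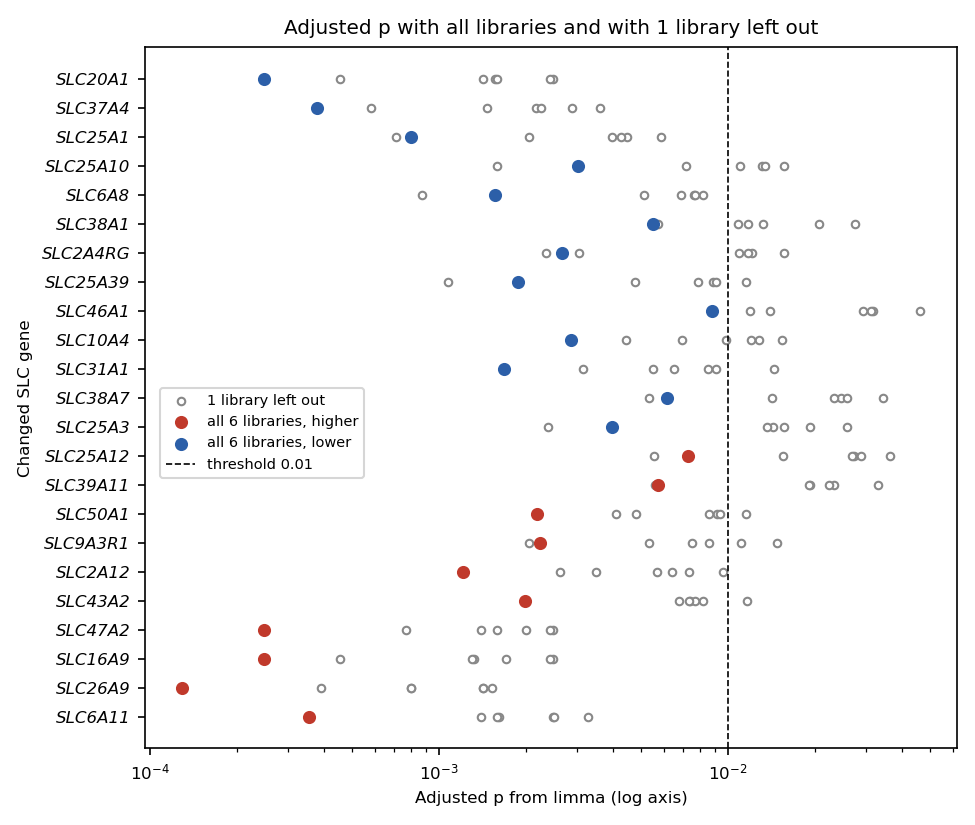
Adjusted p from limma (log axis) of the 23 changed SLC genes with all 6 libraries (filled) and with each library left out in turn (open), and the threshold of 0.01 as a dashed line. All open points of SLC20A1, SLC37A4, SLC25A1, SLC6A8, SLC2A12, SLC47A2, SLC16A9, SLC26A9 and SLC6A11 lie left of the line.

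Levels of the 158 genes spanned from 1.04 to 270.0 FPKM with a median of 6.64 FPKM. At least 100 FPKM were reached by 4 genes, 10 to 100 FPKM by 50 and 1 to 10 FPKM by 104. Of the changed genes, 9 were at or above 10 FPKM and 14 below. Just above the limit of 1 FPKM were SLC26A10, SLC25A30 and SLC26A2 (means of 1.04, 1.13 and 1.20 FPKM), and just below it SLC5A2, SLC27A3 and SLC15A2 (0.983, 0.956 and 0.931 FPKM). For 4 genes the group means lay on both sides of the limit, SLC43A2 and SLC6A11 with siC below it and SLC26A10 and SLC25A30 with siMSI1 below it. Of the 181 SLC genes under the limit, 49 had no read in any library, 18 were tested and 0 changed by limma at the threshold. Of all tested genes 11.0% changed, but these were not matched to the 18 on level. Of the 18, 6 had an unadjusted p under 0.05 in limma, against 75 of the 158 genes above the limit, and voom called 5. The 18 and the 158 genes differ in level, and shares of all tested genes for these measures are not given here. The fewest reads behind a value of an expressed SLC gene were 30.

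Genes that work beside the SLC carriers were read from the same fit. Of 119 tested genes on 7 lists, without those that are SLC genes above, 19 changed (15.97%, against 11.0% of all tested genes and 13.9% of protein-coding genes with a mean of at least 1 FPKM), 10 lower and 9 higher. Of 22 genes of SLC families that carry other symbols, 4 fell (SFXN2, XPR1, MPC1 and the Hedgehog receptor PTCH1, log2 fold change -0.51, adjusted p = 0.00414) and 3 rose (SFXN1, SFXN3 and SFXN5). The 23 tested accessory subunits and chaperones include 3 of the SLC genes above, which the count of 119 leaves out. Among the 23, ARL6IP5, which retains the glutamate carrier EAAC1 in the endoplasmic reticulum, fell from 91.1 to 45.3 FPKM (log2 fold change -1.01, adjusted p = 0.000247). TXNIP, which drives the internalization of GLUT1, fell as well (log2 fold change -0.62, adjusted p = 0.00266). Of the organic anion transporters with SLCO symbols, SLCO5A1 rose (log2 fold change 0.97, adjusted p = 0.00135) and 1 other was tested. Of 19 ABC transporters, 2 rose, among them ABCC5, an exporter of organic anions (log2 fold change 0.49, adjusted p = 0.00468). Of 20 transcription factors known to act on SLC genes, the MYC family member MYCN rose (log2 fold change 0.62, adjusted p = 0.000554) and MITF, a regulator of lysosomal and melanocyte genes, fell (log2 fold change -0.79, adjusted p = 0.00929). Of 30 genes of amino acid sensing and mTORC1, the stress-induced inhibitors DDIT4 (log2 fold change 1.51, adjusted p = 0.00023) and SESN2 (log2 fold change 1.01, adjusted p = 0.00137) rose and RRAGB, a Rag GTPase that recruits mTORC1 to lysosomes, fell (log2 fold change -0.55, adjusted p = 0.00479). The medians of these lists were -0.10 to 0.55, the highest for the 2 tested SLCO genes.

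Some of these genes share their locus with others. The libraries were strand-specific, but whether the authors counted by strand is not given in the sources used here. SLC46A1 overlaps SARM1 on the opposite strand, and SARM1 fell as well (log2 fold change -0.95, adjusted p = 0.00101). SLC25A12 overlaps HAT1 on the opposite strand, whose log2 fold change was -0.45 with an adjusted p of 0.0234, and SLC31A1 overlaps CDC26, whose log2 fold change was 0.37 with an adjusted p of 0.0466, both opposite in sign to the SLC gene. SLC39A11 holds the small RNA gene SCARNA24 on its own strand, which rose (log2 fold change 3.99, adjusted p = 0.00543). SCARNA24 was at a low level, with means of 0.162 FPKM in siC and 2.79 FPKM in siMSI1 over 137 bases. Antisense genes lie on the opposite strand of SLC26A9 (AL713965.1, log2 fold change 1.30, adjusted p = 0.311) and SLC9A3R1 (AC016888.1, log2 fold change 1.53, adjusted p = 0.0551). SLC47A2 shares 7473 bases with ALDH3A2 on the opposite strand, whose mean was 47.6 FPKM in siC and 53.9 FPKM in siMSI1 (log2 fold change 0.18, adjusted p = 0.0993), far above the level of SLC47A2. SLC2A12 overlaps TBPL1 (log2 fold change 0.09, adjusted p = 0.546) and SLC37A4 overlaps TRAPPC4 (log2 fold change -0.10, adjusted p = 0.437) on the opposite strand. The part of overlapping genes in these SLC values was not tested.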

How the data were processed

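KNS42 cells gave 6 mRNA-seq libraries (siC, n = 3 and siMSI1, n = 3), grouped by the labels. Per the labels and the study's methods, the authors clipped reads with Cutadapt 1.14, aligned them to GRCh38 with HISAT2 2.1.0, handled alignments with SAMtools 1.5 and counted them per gene with featureCounts 1.5.3. They deposited FPKM per gene and library, with library sizes that differ from the reads on genes by factors of 0.977 to 1.03, and the gene length. The columns of the authors' own comparison (edgeR 3.18.1) hold log2 fold changes, p-values and false discovery rates and were not used. FPKM times length gave whole reads for 100% of values (tolerance 0.01 reads).

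The test was limma 3.58.1 in R 4.3.3 on log2(FPKM + 0.1) of 15069 genes that had 0.5 FPKM or more on average (eBayes with trend and robust, two-sided, Benjamini-Hochberg, adjusted p of at most 0.01), without a block. Log2 fold changes and the limit of 2-fold are on this scale, which understates the changes of low genes. Values given as fold or as a percentage of siC are ratios of the mean FPKM of the groups. The fit was tested on simulated data with planted changes. Genes were named by a rule: the 12 largest rises and 12 largest falls among changed genes without overlap, the 10 highest levels, well-known carriers, changed genes of subfamilies with at least 3 of them, the 3 genes on each side of the limit, and up to 4 changed genes of each other list. Paralogs and chaperones of these (SLC20A2, SLC31A2, SLC47A1, SLC6A6, SLC9A3R2, SLC37A3, SLC38A6, MPC2 and BSG), the overlapping genes and SLC12A8 were chosen after their values were seen. The SLC genes, lists and tests were chosen with earlier results of these data known. Positions and 3′UTRs came from GENCODE 44, which held 98.7% of the gene identifiers and all 158 SLC genes. SLC35 genes with a letter other than A before the number were not taken by the symbol pattern. Alternatives were 2 other added values, 2 other filters, 2 other scalings, plain moderation, an adjusted p of 0.05, a mean of at least 5 FPKM, a replicate block, voom on recovered reads with and without it, and leaving out each library. Symbols of transporters alone were added after the data were seen. Some values and sequences are not reported here. Analyses used Python 3.11.15 with pandas 2.3.3, numpy 2.4.6 and matplotlib 3.10.9.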

Additional observations from a re-analysis of the deposited data

How the results depend on the processing

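Precision is limited by 3 libraries per group and, for the lowest genes, by reads. The SE of a log2 fold change is that of limma, from the spread between libraries. The ± values of summed levels are standard deviations over the 3 libraries of a group. The count of 23 changed SLC genes (13 lower, 10 higher, 5 in SLC25; 19 on the partner lists) became 14 (6 lower; 2; 11) without a filter on low values and 11 (5 lower, 6 higher; 1; 10) with plain moderation. It became 59 (32 lower, 27 higher; 14; 41) at an adjusted p of 0.05. With voom on recovered reads it was 43 (22 lower, 21 higher; 32 on the partner lists). Leaving out 1 library gave 10 to 27 changed SLC genes, 4 to 15 lower, 6 to 12 higher, 1 to 6 in SLC25, and 8 to 22 on the partner lists. The lowest counts were those without siC replicate 1 and the highest those without siMSI1 replicate 3. The fold change of MSI1 kept its direction and call, at -2.45 to -2.39 without 1 library. The cause of these shifts was not tested. Shares of all tested genes called under each alternative are not given here. These counts can therefore not be set against the 11.0% and 13.9% of the main fit or read as particular to SLC genes.

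The labels number the replicates, but libraries with the same number did not deviate together (correlations of -0.066, 0.078 and 0.083 for replicates 1, 2 and 3). With the replicate block, 33 SLC genes changed (9 in SLC25). With voom and the replicate block, 78 changed (42 lower and 36 higher, with 18 in SLC25), and 59 on the partner lists. The shares of all tested genes called in these 2 fits are not given here, so the counts cannot be read as particular to SLC genes. The sign turned for 5 named genes near 0, none of them called: SLC1A5 with centring (0.0080) and voom (0.0039), SLC25A13 with quantile normalization (-0.0059), and, on leaving out 1 library, SLC1A5 (-0.11 to 0.053), SLC7A5 (-0.13 to 0.047), SLC4A2 (-0.063 to 0.11) and SLC19A1 (-0.13 to 0.041). Among the other values of named genes under these alternatives, 721 stayed on their side of the threshold, 72 lost and 27 gained the call, all with the same sign.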
